A study of Homo sapiens with 22 samples.

Results

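NF-kappaB is a family of dimeric transcription factors, and its subunits and feedback genes form a set of 10 genes here: NFKB1, NFKB2, REL, RELA and RELB encode the subunits, NFKBIA, NFKBIE and BCL3 encode inhibitor-type proteins that bind them, and TNFAIP3 and BIRC3 encode regulators of the signalling that leads to them. The members described are all chromatin regions of 4 deposited tables that overlapped a gene's RefSeq span in GRCh38 or its flanks of 50 kb on each side. This rule gave 421 of 409446 regions: 106 of 95436 in the H3K27ac table, 140 of 138731 in the Jun table, 69 of 66168 in the CTCF table and 106 of 109111 in the Rad21 table. REL had no CTCF region.

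The cells were K562, an established human leukemia line of wild-type genotype, given 25 nM PMA (a phorbol ester that activates protein kinase C) to induce megakaryocyte differentiation. The libraries were labelled CNR, read here as CUT&RUN, in which an antibody-guided nuclease frees DNA beside a bound protein. There were 22 libraries in 11 groups of 2. H3K27ac (an acetylated histone mark of active promoters and enhancers), Jun (part of the AP-1 transcription factor) and CTCF (an insulator protein) were sampled after 0, 6 and 72 h of PMA, and Rad21 (part of the cohesin ring) after 0 and 72 h. Cells of all groups were fixed with 1% formaldehyde. The 0 h libraries are the only controls, so time in culture and PMA cannot be told apart. The labels do not say whether replicates came from separate cultures, so the p-values measure only the spread between these libraries, which may be technical. NF-kappaB binding and RNA were not measured in these libraries.

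In resting cells, inhibitor proteins of the IkappaB family hold NF-kappaB dimers in the cytoplasm, and activation of the IKK kinases leads to their degradation. Protein kinase C, the enzyme activated by phorbol esters, can feed into IKK. NF-kappaB in turn activates the genes of several of its own subunits and of inhibitors such as NFKBIA and TNFAIP3, which is why these genes are known as a feedback circuit. BIRC3 encodes a ubiquitin ligase that restrains the non-canonical route to NFKB2 and RELB, and BCL3 encodes an atypical nuclear IkappaB protein.

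Promoter sequences that hold an NF-kappaB consensus are printed because measured regions lie over them. RefSeq sequences of GRCh38.p14 were matched for 8 of the 10 genes, with 12 start sites in all. The 250 bases before each start were searched on both strands for the NF-kappaB consensus, with overlapping matches counted. It was found in 7 of the 12 windows, of NFKB1, NFKB2, REL, NFKBIA, TNFAIP3 and BIRC3, against 9.95% of all 34943 promoter windows of that length. The windows of RELA and BCL3 held no match. The AP-1 motif TGANTCA, which does not overlap the NF-kappaB consensus, was found in 0 of the 12 windows and in 6.59% of all windows. A match describes letters and is not a measured binding site. Capitals mark the NF-kappaB match in each sequence, written 5′ to 3′ on the gene's strand.
NFKB1, chr4:102501109-102501358, plus strand: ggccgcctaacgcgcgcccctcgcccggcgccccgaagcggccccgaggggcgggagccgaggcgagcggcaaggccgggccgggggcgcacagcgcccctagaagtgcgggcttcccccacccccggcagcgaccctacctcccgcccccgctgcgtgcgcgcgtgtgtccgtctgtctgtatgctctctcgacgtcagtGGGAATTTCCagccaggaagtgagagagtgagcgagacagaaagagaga
REL, chr2:60881324-60881573, plus strand: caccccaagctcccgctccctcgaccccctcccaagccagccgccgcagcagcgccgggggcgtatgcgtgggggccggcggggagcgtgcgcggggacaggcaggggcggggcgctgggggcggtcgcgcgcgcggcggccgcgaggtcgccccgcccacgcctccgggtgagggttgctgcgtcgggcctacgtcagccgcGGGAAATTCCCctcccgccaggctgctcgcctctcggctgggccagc
NFKBIA, chr14:35404750-35404999, minus strand: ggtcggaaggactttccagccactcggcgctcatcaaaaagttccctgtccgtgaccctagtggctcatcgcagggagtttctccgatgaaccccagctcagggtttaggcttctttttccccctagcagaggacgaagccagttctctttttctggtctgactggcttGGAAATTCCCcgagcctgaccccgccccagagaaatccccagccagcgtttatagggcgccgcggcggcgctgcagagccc
BIRC3, chr11:102317234-102317483, plus strand: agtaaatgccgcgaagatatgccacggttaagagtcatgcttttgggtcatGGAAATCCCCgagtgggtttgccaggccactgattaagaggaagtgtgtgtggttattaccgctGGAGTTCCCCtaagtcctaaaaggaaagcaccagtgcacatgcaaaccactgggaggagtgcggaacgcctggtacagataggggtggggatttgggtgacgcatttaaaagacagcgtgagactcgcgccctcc
NFKB2, chr10:102394463-102394489, plus strand: aacgtcatGGGAATTCCCCcctccggg
NFKB2, chr10:102394492-102394517, plus strand: gccgagaaGGGGCTTTCCcggccctg
NFKB2, chr10:102395521-102395546, plus strand: cccccaccGGGGCTTCCCggattctc
NFKB2, chr10:102395676-102395701, plus strand: gtattttcGGGACTTTCCtaagctgc
TNFAIP3, chr6:137867188-137867217, plus strand: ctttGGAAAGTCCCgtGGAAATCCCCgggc

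The windows with a match differed in what lay over them. The windows of BIRC3 and of the upstream matched start of NFKB2 were overlapped by regions of all 4 antibodies. The NFKB1 window was overlapped by an H3K27ac region, the REL window by a Jun region, the NFKBIA window by H3K27ac and Rad21 regions, and the TNFAIP3 window by Jun, CTCF and Rad21 regions. The downstream matched start of NFKB2 was overlapped by H3K27ac and Jun regions.

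Levels are given as CPM, the counts-per-million unit, with TMM scaling factors, for replicate 1 and then replicate 2 of each time. Differences are log2 fold changes with their standard error (SE) from edgeR's quasi-likelihood test over all regions of an antibody, and a region was called higher or lower when the Benjamini-Hochberg adjusted p was under 0.05. Totals over regions per library were between 12634261 and 27266241 counts for H3K27ac, from 4766421 to 18883962 for Jun, from 2553677 to 6068421 for CTCF and from 4398797 to 7285286 for Rad21. The share of Jun counts on the mitochondrial chromosome was 24.05% and 27.692% at 0 h, 21.27% and 18.1% at 6 h, then 9.069% and 8.583% at 72 h. Scaling to total counts in place of TMM shifted the all-region Jun median at 72 against 0 h from 0.17 to 0.73 on the log2 scale, and that of all H3K27ac regions from 0.18 to 0.42. It moved the medians at 6 against 0 h from 0.19 to 0.53 for H3K27ac and from 0.06 to 0.26 for Jun. For Jun the mitochondrial share fell with time while the shift grew. H3K27ac libraries held no more than 1.473% on that chromosome. Their share rose by 6 h and was lowest at 72 h, although the H3K27ac median was shifted upward in each case. The H3K27ac shift thus did not follow this share. CTCF libraries ranged from 9.548% to 30.514%, and Rad21 libraries from 24.784% to 34.115%. The part of the mitochondrial share in the results was not tested. Directions below are therefore relative to the TMM scale. For regions and windows given with a log2 fold change, calls that ended under total-count scaling are named. A region given as the largest rise or fall of a window is the largest among those called at 72 against 0 h whose mean level reached the median of all regions of that antibody and whose 0 and 72 h libraries did not overlap. The lack of overlap at such regions was part of the choice, and dimmer regions could change by more. As a check of the label, an H3K27ac region lay over the spans of 8 of 9 erythroleukemia markers, among them GATA1 (42.5, 17.2 and 36.8 CPM on average at 0, 6 and 72 h). Of 12 markers of T cells, B cells and monocytes, CD3G, MS4A1 and CD14 had no H3K27ac region, while the T cell gene CD2 held 75.3, 11.5 and 13.8 CPM. Of the monocyte genes, CSF1R held 0.989, 12.8 and 70.5 CPM, SPI1 65.5, 38.3 and 44.9 CPM, and LYZ 41.0, 26.8 and 13.9 CPM. The other 5 held at most 22.5 CPM at any time, and the part of these markers in the results was not tested.

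H3K27ac around the 10 genes was more often lower than higher at 72 h. Of the 105 member regions tested, 20 were called higher and 65 lower at 72 against 0 h. Calls made up 81.0% of the members, close to the 81.5% of all tested H3K27ac regions. The split differed: 19.0% of members against 43.4% of all regions were called higher, and 61.9% against 38.1% lower. The median log2 fold change was -0.67 over the members and 0.18 over all regions. The latter depended on count level. Among regions with a mean count of at least 50 it was -0.06, with 85.5% called. Of the 79 members among these, 20 were called higher and 45 lower. At 6 against 0 h, 55 members were called, 21 higher and 34 lower, where 58.6% of all regions were called (32.3% higher and 26.3% lower), and the medians were -0.07 and 0.19. At 72 against 6 h, 59 were called, 11 higher and 48 lower, where 63.8% of all regions were called, 33.1% higher and 30.8% lower. Under total-count scaling the splits became 37 higher and 17 lower at 6 h, 25 higher and 55 lower at 72 against 0 h, and 9 higher and 56 lower at 72 against 6 h. Of all regions 58.5%, 80.4% and 65.0% were then called, with medians moved to 0.53, 0.42 and -0.08. The whole table thus moved with the members, and its split under this scaling is not given here. These comparisons share libraries, so their counts are not independent of each other.

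**Figure D1:**
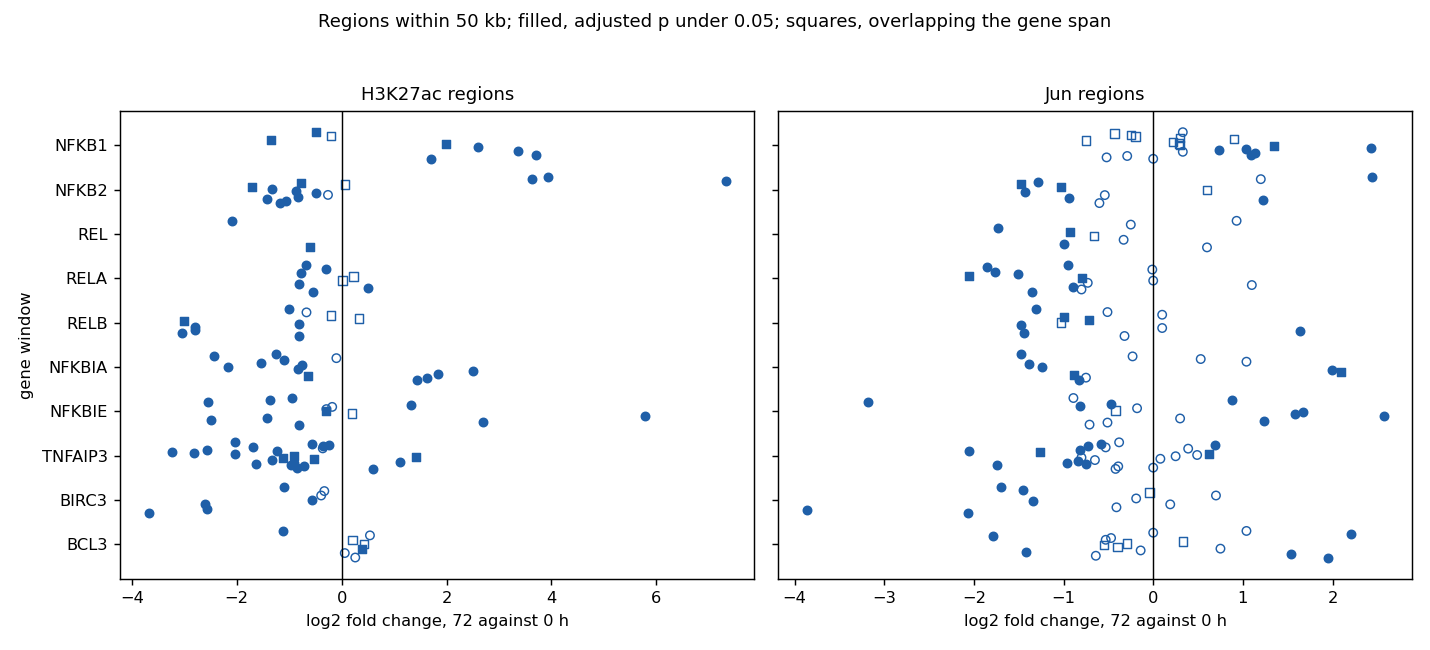
Log2 fold change at 72 against 0 h on the TMM scale (horizontal axis) of every tested H3K27ac and Jun region, by gene (vertical axis). Filled marks are called regions and squares overlap the gene span. In the H3K27ac panel 20 filled marks lie right of 0 and 65 left of it, and those of NFKB1 are mostly right of 0.

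Regions over the genes and regions in the flanks were counted apart. The 23 tested H3K27ac regions that overlapped a gene span had a median log2 fold change of -0.20 at 72 against 0 h, with 3 called higher and 11 lower. The 82 regions in the flanks had a median of -0.81, with 17 called higher and 54 lower. The difference between both positions was not tested. Of the subunit genes, NFKB1 had 5 regions called higher and 2 lower of 8, NFKB2 3 higher and 9 lower of 14, RELA 1 higher and 5 lower of 8, RELB 0 higher and 7 lower of 10, and REL 0 higher and 2 lower of 2. Of the feedback genes, TNFAIP3 had 3 higher and 19 lower of 23, NFKBIA 4 higher and 8 lower of 13, NFKBIE 3 higher and 7 lower of 13, BIRC3 0 higher and 5 lower of 7, and BCL3 1 higher and 1 lower of 7. Total-count scaling gave 5 higher and 2 lower for NFKB1, 3 and 8 for NFKB2, 3 and 4 for RELA, 0 and 7 for RELB, and 0 and 2 for REL. For the feedback genes it gave 3 and 13 for TNFAIP3, 4 and 8 for NFKBIA, 4 and 6 for NFKBIE, 0 and 4 for BIRC3, and 3 and 1 for BCL3.

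Jun regions were called at about the rate of the whole Jun table. Of 136 member regions tested, 66 (48.5%) were called at 72 against 0 h, 21 higher and 45 lower, where 53.7% of all tested Jun regions were called, 28.0% higher and 25.7% lower. The median log2 fold change was -0.42 over the members and 0.17 over all regions. Under total-count scaling this split turned to 40 higher and 23 lower. The whole Jun table moved as well, with 59.6% of all regions called and a median of 0.73 over them. At 6 against 0 h, 37 were called, 18 higher and 19 lower, against 25.3% of all regions (13.1% higher and 12.2% lower). Total-count scaling gave 24 higher and 14 lower, where 25.9% of all regions were called with a median of 0.26. At 72 against 6 h, 35 were called, 2 higher and 33 lower, against 26.2% of all regions (12.7% higher and 13.4% lower). Total-count scaling left 6 higher and 11 lower, where 29.0% of all regions were called with a median of 0.38. By gene at 72 against 0 h, NFKB1 had 6 Jun regions called higher and 0 lower of 20 tested, and RELA had 0 higher and 8 lower of 13.

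CTCF members were rarely called. At 72 against 0 h, 5 of 68 tested were called, 4 higher and 1 lower, where 6.79% of all tested CTCF regions were called, 4.07% higher and 2.72% lower. At 6 against 0 h, 1 was called, higher, where 2.65% of all were, 2.33% higher and 0.325% lower. At 72 against 6 h, edgeR called 0, where 2.18% of all were called (0.451% higher and 1.73% lower), with 16 members at an unadjusted p under 0.05 and 0 called by DESeq2. Rad21 had 24 of 95 called at 72 against 0 h, 12 higher and 12 lower, where 23.3% of all tested Rad21 regions were called, 15.4% higher and 7.91% lower. Under total-count scaling 10 Rad21 members were called higher and 16 lower, and the share of all Rad21 regions under this scaling is not given here. On the TMM scale the total shares for CTCF and Rad21 lay near their backgrounds.

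Where H3K27ac and Jun regions lay on the same site, their calls were set side by side. Of the 106 H3K27ac members, 71 (67.0%) overlapped a Jun region, where 71.8% of all H3K27ac regions did. Of the 12 H3K27ac members whose Jun region was higher at 72 against 0 h, 8 were called higher, 3 lower and 1 had no call. Of the 32 over a Jun region called lower, 2 were called higher, 23 lower and 7 had no call. All 9 H3K27ac members over a Rad21 region called lower were called lower, while the 9 over a Rad21 region called higher split into 2 higher, 2 lower and 5 without a call. Of all tested H3K27ac members 19.0% were called higher and 61.9% lower, and of all tested H3K27ac regions 43.4% and 38.1%. The same overlap counts over all sites are not given here. Neighbouring regions of a gene are not independent replicates, and these counts carry no test.

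**Figure D2:**
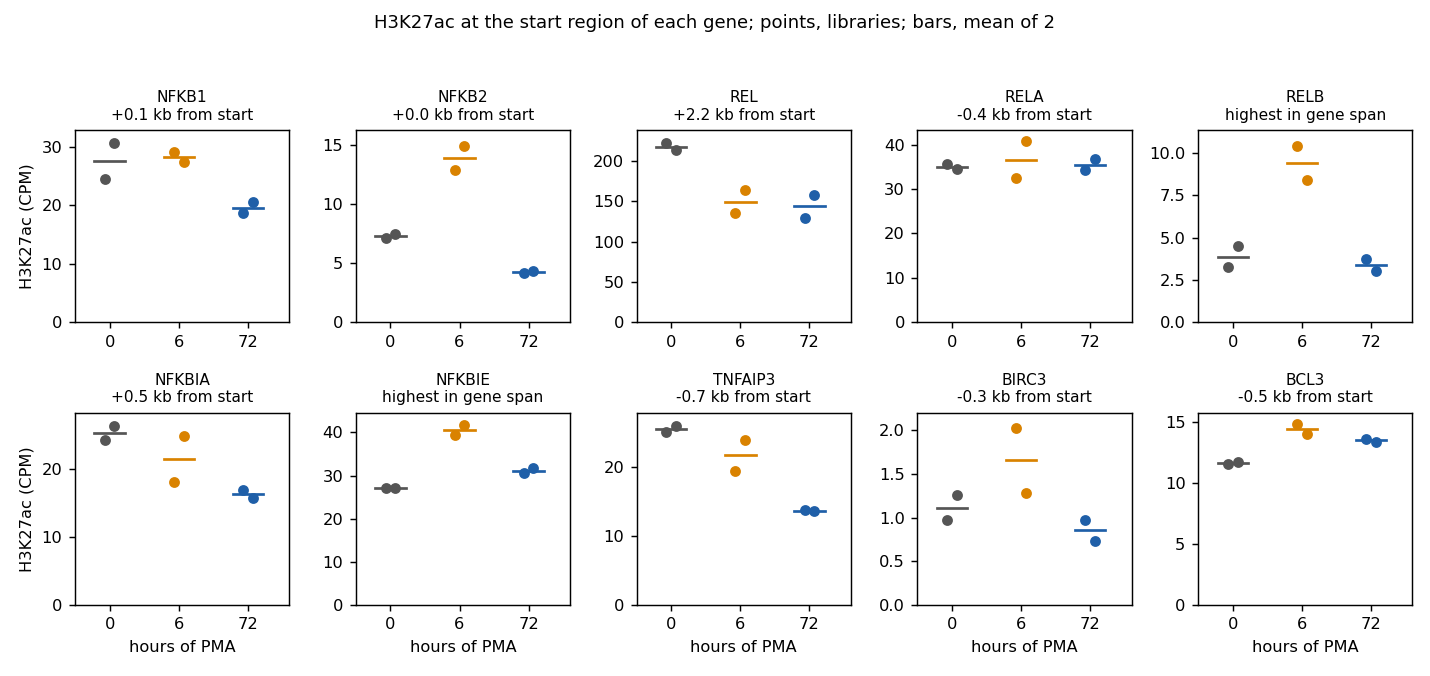
H3K27ac level (CPM, vertical axis) at 0, 6 and 72 h of PMA (horizontal axis) at the region nearest the start of each gene, 1 point per library; for RELB and NFKBIE the highest region overlapping the span is shown. NFKB2, RELB, NFKBIE and BCL3 peak at 6 h, that of BCL3 without a call. Both 72 h libraries are the lowest for NFKB1, NFKB2, NFKBIA and TNFAIP3. BIRC3 is also highest at 6 h without a call, and stays at or below 2.03 CPM.

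H3K27ac rose at 6 h over both matched starts of NFKB2, which has 3 listed starts, and in the span-end regions of RELB and NFKBIE. At 72 h NFKB2 and RELB were not called higher than at 0 h, while both NFKBIE libraries lay above those of 0 h. NFKB2 encodes the precursor of the non-canonical subunit. Its H3K27ac region over the upstream matched start (chr10:102394128-102394959) measured 7.16 and 7.43 CPM at 0 h, 12.9 and 14.9 at 6 h, then 4.20 and 4.37 at 72 h. Both 6 h libraries lay above, and both 72 h libraries below, all others. The log2 fold change was 0.94 (SE 0.16, edgeR adjusted p = 2.63e-05) at 6 against 0 h and -0.77 (SE 0.18, edgeR adjusted p = 0.00031) at 72 against 0 h. The second NFKB2 region, over the downstream matched start (chr10:102395193-102396438), measured 7.84 and 8.38 CPM at 0 h, 13.0 and 14.1 at 6 h, then 7.49 and 9.47 at 72 h. It rose by 0.74 (SE 0.16) at 6 h, edgeR adjusted p = 0.000353, while 72 and 0 h overlapped (log2 fold change 0.06). RELB encodes the partner of processed NFKB2, and the H3K27ac region at the low-coordinate end of its span (chr19:45001512-45002413) measured 3.24 and 4.48 CPM at 0 h, 10.4 and 8.36 at 6 h, then 3.73 and 3.02 at 72 h. It rose by 1.26 (SE 0.21, edgeR adjusted p = 1.76e-05) at 6 h and fell by 1.46 (SE 0.21, edgeR adjusted p = 1.31e-06) from 6 to 72 h. Both 6 h libraries lay above the other 4, which overlapped. NFKBIE encodes IkappaB-epsilon, an inhibitor induced late in the feedback. Its region at the high-coordinate end of the span (chr6:44263602-44266058) measured 27 and 27.2 CPM at 0 h, 39.5 and 41.7 at 6 h, then 30.6 and 31.7 at 72 h (log2 fold change 0.58, SE 0.11, edgeR adjusted p = 4.74e-05) at 6 h. The 72 h value was 0.20 above that of 0 h on the log2 scale without a call, and total-count scaling called this difference (0.43).

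The starts of the canonical genes differed from these. NFKB1 encodes the precursor of the canonical subunit, and its start region (chr4:102500546-102502342) measured 24.5 and 30.6 CPM at 0 h, 29.1 and 27.3 at 6 h, then 18.7 and 20.5 at 72 h. The 72 h libraries were the lowest 2, with a log2 fold change of -0.49 (SE 0.12, edgeR adjusted p = 0.000655) against 0 h. Without replicate 2 of 0 h this was -0.32 with an edgeR adjusted p of 0.0566. RELA encodes the main activating subunit. Its start region (chr11:65662255-65664314) measured 35.6 and 34.5 CPM at 0 h, 32.5 and 40.7 at 6 h, then 34.2 and 36.8 at 72 h, and the 3 times overlapped (log2 fold change 0.07 at 6 h and 0.02 at 72 h), although total-count scaling called it higher at both times (0.40 and 0.25). REL encodes c-Rel, the subunit best known from lymphocytes. Its only H3K27ac region overlapping the span (chr2:60881847-60885706), 2.2 kb past the start, measured 222 and 214 CPM at 0 h, 135 and 164 at 6 h, then 130 and 158 at 72 h. Both 0 h libraries lay above the other 4. REL fell by 0.54 (SE 0.12, edgeR adjusted p = 0.000391) at 6 h, a call that total-count scaling ended (-0.20), and by 0.60 (SE 0.12, edgeR adjusted p = 5.99e-05) at 72 h.

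Summed over the whole window of a gene, H3K27ac rose with both scalings around NFKB1 only among the subunit genes. The NFKB1 window held 50.9 and 56.3 CPM at 0 h, 83.6 and 91.3 at 6 h, then 102 and 105 at 72 h, so that the 3 times did not overlap. The fit over all gene windows gave a log2 fold change of 0.71 (SE 0.07, edgeR adjusted p = 1.11e-08) at 6 h and 0.95 (SE 0.07, edgeR adjusted p = 1.75e-11) at 72 h against 0 h. All 10 gene windows were called at 72 against 0 h, 2 higher and 8 lower, where 88.3% of all gene windows were called, 35.1% higher and 53.2% lower. At 6 h 9 were called, 2 higher and 7 lower, where 76.3% of all were, 27% higher and 49.3% lower. At 72 against 6 h, 5 were called, 1 higher and 4 lower, where 73.9% of all were, 36.3% higher and 37.6% lower. Total-count scaling left 3 higher and 4 lower at 6 h, 2 higher and 7 lower at 72 against 0 h, and 0 higher and 8 lower at 72 against 6 h. Of all gene windows 70.3%, 86.2% and 78.6% were then called, with medians of 0.13, -0.06 and -0.13.

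**Figure D3:**
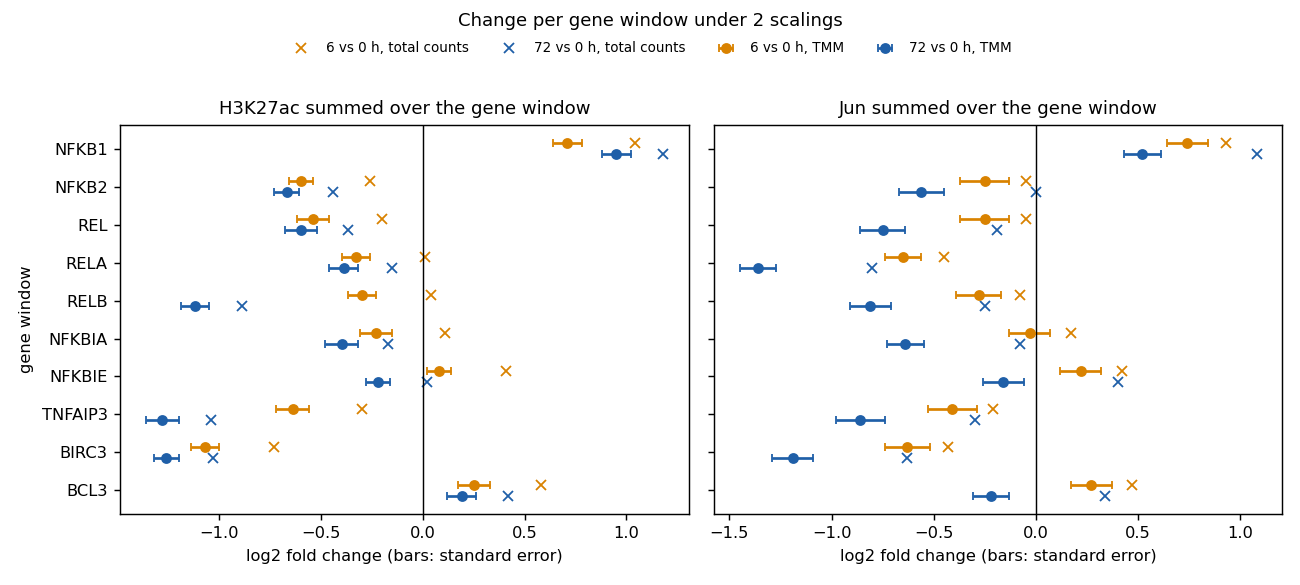
Log2 fold change of the summed H3K27ac and Jun counts of each gene window at 6 and 72 h against 0 h; points with bars are TMM values with their standard error and crosses are values scaled to total counts. H3K27ac is highest for NFKB1 (0.95 at 72 h) and lowest for TNFAIP3 (-1.28) and BIRC3 (-1.26), and every cross for Jun lies to the right of its point.

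The other subunit windows held less H3K27ac after PMA. The RELB window held 122 and 124 CPM at 0 h, 103 and 97.3 at 6 h, then 59.4 and 53.6 at 72 h (log2 fold change -1.12, SE 0.07, edgeR adjusted p = 3.23e-13) at 72 h. The NFKB2 window went from 208 and 210 CPM to 132 and 144 and to 130 and 133, and fell by 0.67 (SE 0.06, edgeR adjusted p = 4.53e-10) at 72 h. In both genes the window as a whole and the start region moved in opposite directions at 6 h. RELB fell by 0.30 over its window at 6 h while its span-end region rose, and total-count scaling ended that fall (0.04). The REL window (224 and 216, 136 and 165, 131 and 159 CPM) fell by 0.60 (SE 0.08, edgeR adjusted p = 4.9e-07) at 72 h. The RELA window (292 and 298, 228 and 242, 222 and 229 CPM) fell by 0.39 (SE 0.07, edgeR adjusted p = 1.73e-05), and its 6 h fall of 0.33 ended under total-count scaling (0.01). Every 72 h library of these 4 windows lay below both 0 h libraries.

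Much of the H3K27ac in these windows lay over neighbouring genes. In the RELB window the called region with the largest fall at or above the median level, over ZNF296 and GEMIN7 (chr19:45076137-45076956), measured 15.1 and 17.4 CPM at 0 h and 2.79 and 1.86 at 72 h (log2 fold change -2.80, SE 0.20, edgeR adjusted p = 1.22e-12). The region over CLPTM1 (chr19:44954428-44956510) held the most reads of that window, with 53.4 and 50.5 CPM at 0 h and 26.7 and 25.3 at 72 h, and was picked after its values were seen. In the NFKB2 window a region over FBXL15 (chr10:102420174-102422807), also picked after its values were seen, measured 67.7 and 70.4 CPM at 0 h, 29.0 and 29.6 at 6 h, then 26.9 and 28.4 at 72 h. The largest rise of the NFKB2 window at or above the median level lay over GBF1, 50.7 kb before the nearest listed start (chr10:102342488-102344257), where 0.909 and 1.11 CPM at 0 h became 3.22 and 2.21 at 6 h, then 15.1 and 16.2 at 72 h. That was a log2 fold change of 3.94 (SE 0.23, edgeR adjusted p = 3.87e-14). The largest called fall of the RELA window, 28.4 kb before its start (chr11:65691717-65692881), went from 15 and 13.8 CPM to 7.48 and 7.43 and to 8.68 and 7.76, a log2 fold change of -0.81 at 72 h. None of these data assign a region to the gene it acts on.

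Of the 5 H3K27ac regions called higher around NFKB1 at 72 h, 4 lay past the far end of the gene. A site 10.3 kb past the span and 126.5 kb from the start (chr4:102627602-102629211), in no listed gene span, measured 2.1 and 1.79 CPM at 0 h, 20.4 and 22.1 at 6 h, then 19.5 and 20.6 at 72 h. All 4 later libraries lay far above both 0 h libraries, and those of 6 and 72 h overlapped. The log2 fold change was 3.45 (SE 0.17, edgeR adjusted p = 1.34e-14) at 6 h and 3.36 (SE 0.17, edgeR adjusted p = 2.17e-15) at 72 h. The region with the largest called rise, over MANBA at 140.5 kb (chr4:102641518-102643268), rose in steps, with 1.59 and 0.948 CPM at 0 h, 5.74 and 7.13 at 6 h, then 17.7 and 15.3 at 72 h. A region at 118.6 kb (chr4:102619890-102621201) measured 2.04 and 1.00, 4.55 and 5.36, and 9.59 and 8.77 CPM, and one at 161.4 kb measured 7.44 and 8.90, 13.8 and 18.9, and 24.9 and 28.3 CPM. All 4 of these sites were called higher at both times under both scalings. The fifth region, inside the span 62.8 kb past the start (chr4:102564577-102564820), held 5 and 2 reads at 0 h, 12 and 6 at 6 h, then 35 and 8 at 72 h. The call for that rise of 1.99 (SE 0.8, edgeR adjusted p = 0.0256) was lost with DESeq2 (adjusted p = 0.078) and without replicate 2 of 0 h (1.44, edgeR adjusted p = 0.165) or replicate 1 of 72 h (0.58, edgeR adjusted p = 0.654). The regions at 62.8, 118.6, 126.5 and 161.4 kb were picked after their values were seen.

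At the site 126.5 kb from the NFKB1 start all 4 antibodies were called higher at 72 h. Its Jun region (chr4:102627601-102628756) measured 13.6 and 10.8 CPM at 0 h, 28.5 and 35.8 at 6 h, then 19.9 and 20.6 at 72 h, so Jun was highest at 6 h. Jun rose by 1.40 (SE 0.21, edgeR adjusted p = 5.31e-05) at 6 h. The 72 h rise of 0.73 was called with all libraries, and lost its call without replicate 2 of 0 h (0.57, edgeR adjusted p = 0.0932), replicate 1 of 72 h (0.67, edgeR adjusted p = 0.0713) or replicate 2 of 72 h (0.62, edgeR adjusted p = 0.1). Rad21 there (chr4:102627753-102628651) went from 3.35 and 4.91 CPM at 0 h to 15.2 and 13.0 at 72 h (log2 fold change 1.79, SE 0.32, edgeR adjusted p = 0.000365). CTCF (chr4:102627738-102628124) measured 0.757 and 0.714 CPM at 0 h, 4.81 and 4.43 at 6 h, then 5.47 and 5.01 at 72 h. The CTCF value of 2.77 (log2 fold change, 72 against 0 h) had an edgeR adjusted p of 0.0247, which rose to between 0.121 and 0.169 without any 1 of the 0 and 72 h libraries and to 0.0765 with DESeq2.

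**Figure D4:**
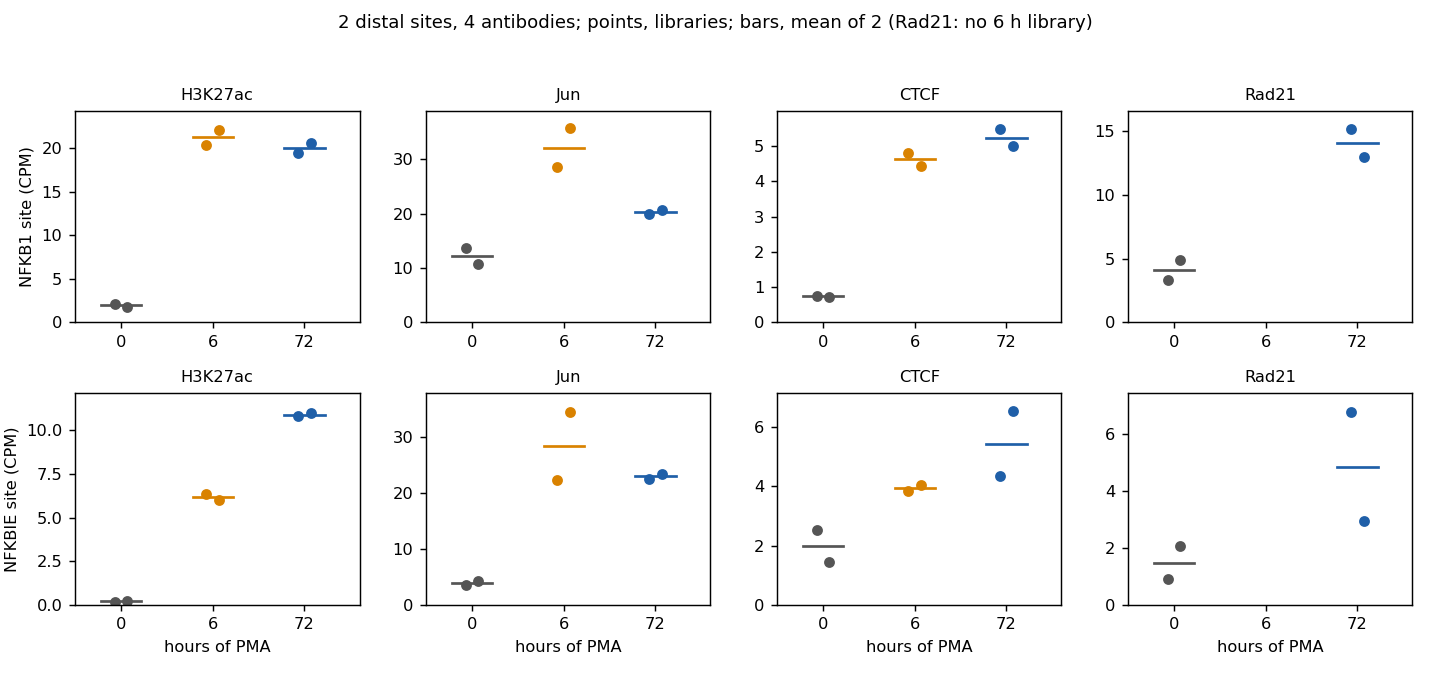
Level (CPM, vertical axis) of H3K27ac, Jun, CTCF and Rad21 by time of PMA (horizontal axis) at the site past NFKB1 and at the site above the NFKBIE span, 1 point per library; Rad21 was not sampled at 6 h. At the NFKB1 site H3K27ac goes from about 2 CPM at 0 h to 20.4 and 22.1 CPM at 6 h, and Rad21 from 3.35 and 4.91 to 15.2 and 13.0 CPM at 72 h.

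Jun calls at the other subunit genes were lower more often than higher on the TMM scale. At 72 against 0 h NFKB2 had 2 higher and 5 lower of 11 tested, REL 0 and 3 of 8, RELA 0 and 8 of 13, and RELB 1 and 5 of 11. Total-count scaling gave 4 higher and 2 lower for NFKB2, 2 and 1 for REL, 2 and 5 for RELA, and 1 and 2 for RELB. Over the RELA start (chr11:65662688-65663517) Jun measured 38.2 and 39.0 CPM at 0 h, 21.2 and 23.6 at 6 h, then 9.23 and 9.34 at 72 h. The 3 times did not overlap, and the region fell by 0.78 (SE 0.19, edgeR adjusted p = 0.00436) at 6 h and by 2.05 (SE 0.18, edgeR adjusted p = 3.03e-08) at 72 h, called under both scalings. H3K27ac over the same start was level, as given above. Over the upstream matched start of NFKB2 (chr10:102394136-102394669) Jun measured 11.6 and 13.6 CPM at 0 h, 12.0 and 8.36 at 6 h, then 4.59 and 4.4 at 72 h, and fell by 1.48 (SE 0.23, edgeR adjusted p = 1.89e-05) at 72 h. A Jun region before the REL start (chr2:60881090-60881387) overlaps part of the printed REL promoter, but not its marked match or the start. Jun there measured 5.66 and 5.28 CPM, 3.62 and 2.73, and 1.85 and 1.44, and fell by 1.73 (SE 0.34, edgeR adjusted p = 0.000213) at 72 h. At RELB the highest Jun region of the span (chr19:45001733-45002248) measured 11 and 13.6 CPM at 0 h, 8.59 and 11.4 at 6 h, then 5.21 and 7.02 at 72 h, and its fall of 1.00 (SE 0.23, edgeR adjusted p = 0.00107) ended under total-count scaling (-0.44). In the NFKB1 window the Jun region with the largest rise, at 118.4 kb (chr4:102619907-102620741), measured 2.76 and 2.28 CPM, 12.0 and 11.1, and 13.3 and 13.9 (log2 fold change 2.43, SE 0.26, edgeR adjusted p = 2.26e-07) at 72 h.

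Jun summed over gene windows gave 9 calls of 10 at 72 against 0 h, 1 higher and 8 lower, where 76.5% of all gene windows were called, 28.3% higher and 48.2% lower. At 6 h 6 were called, 2 higher and 4 lower, where 51.0% of all were (20.8% higher and 30.2% lower). At 72 against 6 h all 10 were called lower, where 58.1% of all were called, 20.1% higher and 38.0% lower. These counts depended on the scaling: total counts left 3 higher and 2 lower at 72 against 0 h, 3 higher and 2 lower at 6 h, and 1 lower at 72 against 6 h. The shares of all Jun gene windows called under total counts are not given here, so the members cannot be set against them. The NFKB1 window rose under both (66.8 and 63.1 CPM at 0 h, 102 and 114 at 6 h, 91.3 and 95.5 at 72 h), and the 72 h value was 0.52 on the log2 scale (SE 0.09, edgeR adjusted p = 1.25e-05) at 72 h. The RELA window fell under both (187 and 182, 112 and 122, 74.6 and 69.0 CPM), by 1.36 (SE 0.09, edgeR adjusted p = 8.88e-13) under TMM and with -0.80 under total counts. The BIRC3 window also fell under both (-1.19 and -0.63). BCL3 reversed, from -0.22 under TMM to 0.34 under total counts, both called.

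Of the inhibitors, NFKBIA encodes IkappaB-alpha, the rapid feedback inhibitor. Its H3K27ac start region (chr14:35403308-35405270), which covers the printed promoter, measured 24.2 and 26.3 CPM at 0 h, 18.0 and 24.7 at 6 h, then 16.8 and 15.7 at 72 h. The 6 h libraries spanned the gap between the other times, and the region fell by 0.64 (SE 0.13, edgeR adjusted p = 9.63e-05) at 72 h. At 6 h the log2 fold change of -0.23 was not called, but without replicate 2 of 6 h it was -0.51 and called. On the other side of the gene, 7.1 kb past the start (chr14:35397303-35397926), H3K27ac rose from 0.568 and 1.16 CPM to 4.69 and 3.94 at 6 h, then 5.43 and 4.48 at 72 h (log2 fold change 2.5, SE 0.31, edgeR adjusted p = 6.04e-08) at 72 h. Jun over that site (chr14:35397275-35397893), picked after its values were seen, measured 0.726 and 0.999 CPM, 3.39 and 4.36, and 3.50 and 3.42, and was called higher at both times. The largest called fall at or above the median level, 36.5 kb past the start (chr14:35367666-35368911), went from 41.9 and 38.8 CPM to 14.5 and 21.5 and to 14.4 and 13.6 (log2 fold change -1.53, SE 0.13, edgeR adjusted p = 1.14e-10). The whole NFKBIA window (209 and 224, 164 and 204, 158 and 170 CPM) fell by 0.40 (SE 0.08, edgeR adjusted p = 6.98e-05) at 72 h. Its 6 h fall of 0.23 lost its call without replicate 2 of 0 h (-0.18, edgeR adjusted p = 0.124) or replicate 1 of 6 h (-0.08, edgeR adjusted p = 0.313), and turned to 0.11 without a call under total counts.

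CTCF and Rad21 each had 1 NFKBIA region called at 72 h, both lower. The CTCF region 2.3 kb before the start (chr14:35406812-35407299) measured 17.2 and 29.6 CPM at 0 h, 14.7 and 17.7 at 6 h, then 5.93 and 9.18 at 72 h. Its fall of 1.58 (edgeR adjusted p = 0.0138) at 72 h was not called without any 1 of the 0 and 72 h libraries, with adjusted p between 0.0579 and 0.166. The Rad21 region over the start (chr14:35404666-35405019) measured 5.79 and 3.89 CPM at 0 h and 3.32 and 4.94 at 72 h, and the times overlapped. The Rad21 region called lower, inside the H3K27ac region at 36.5 kb (chr14:35367717-35368066), went from 7.78 and 4.91 to 3.32 and 1.65 CPM. Its fall of 1.33 (SE 0.43, edgeR adjusted p = 0.0295) lost its call with DESeq2 (adjusted p = 0.174) and without replicate 1 of 0 h (-0.92, edgeR adjusted p = 0.25) or replicate 2 of 72 h (-0.95, edgeR adjusted p = 0.2).

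NFKBIE had the member region with the largest rise among those fixed by the naming rule. The site 13.0 kb above its span, over TMEM151B and DRC5 (chr6:44278587-44279756), held 3 and 4 H3K27ac reads at 0 h, 91 and 122 at 6 h, then 298 and 303 at 72 h. In CPM these were 0.170 and 0.211, 6.37 and 6.00, and 10.8 and 11, with no overlap between times. The log2 fold change was 4.97 (SE 0.34, edgeR adjusted p = 4.88e-12) at 6 h and 5.79 (SE 0.31, edgeR adjusted p = 6.6e-15) at 72 h. Jun at that site (chr6:44278818-44279695) measured 3.48 and 4.28 CPM at 0 h, 22.4 and 34.5 at 6 h, then 22.6 and 23.5 at 72 h, and rose by 2.88 (SE 0.26, edgeR adjusted p = 2.25e-07) at 6 h and 2.57 (SE 0.25, edgeR adjusted p = 8.25e-08) at 72 h. From 6 to 72 h Jun was not called different (-0.31), while H3K27ac was called higher by 0.82. Rad21 there (chr6:44279235-44279612), picked after its values were seen, measured 0.915 and 2.05 CPM at 0 h and 6.78 and 2.93 at 72 h, and its rise of 1.78 (edgeR adjusted p = 0.0233) lost its call with DESeq2 (adjusted p = 0.141) and without replicate 1 of 0 h (1.29, edgeR adjusted p = 0.108) or of 72 h (1.01, edgeR adjusted p = 0.461).

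Below NFKBIE, H3K27ac regions were called in both directions. A region 19.3 kb below the span (chr6:44237210-44238835), picked after its values were seen, went from 8.07 and 8.16 CPM to 23.4 and 21.6 at 6 h, then 19.7 and 21.2 at 72 h (log2 fold change 1.33, SE 0.13, edgeR adjusted p = 1.09e-09). The largest called fall, 31.2 kb below the span over SLC29A1 (chr6:44225607-44226945), went from 34.0 and 34.7 CPM of H3K27ac to 10.8 and 11 at 6 h, then 5.28 and 6.44 at 72 h (log2 fold change -2.55, SE 0.13, edgeR adjusted p = 3.54e-15). The Rad21 region inside it (chr6:44225779-44226143) fell from 6.71 and 6.75 to 2.45 and 1.65 CPM (log2 fold change -1.68, edgeR adjusted p = 0.00605; DESeq2 adjusted p = 0.0586). The Jun region inside it (chr6:44225705-44226016), picked after its values were seen, measured 5.37 and 4.85 CPM at 0 h, 0.226 and 0.909 at 6 h, then 0.284 and 0.803 at 72 h. At HSP90AB1, a chaperone gene below NFKBIE, CTCF (chr6:44246204-44247216) measured 6.31 and 5.36 CPM, 10.9 and 8.05, and 22.1 and 20.2, and Rad21 (chr6:44247592-44248028) went from 3.66 and 4.71 to 9.96 and 10.6 CPM. The CTCF rise of 1.84 (edgeR adjusted p = 0.00616) lost its call without replicate 1 of 0 h (edgeR adjusted p = 0.076), replicate 2 of 0 h (0.0956) or replicate 1 of 72 h (0.0604). The Rad21 rise of 1.31 (edgeR adjusted p = 0.00667) was not called by DESeq2 (0.0626). Over the whole NFKBIE window, H3K27ac (199 and 193, 204 and 210, 167 and 170 CPM) fell by 0.22 at 72 h, a call that ended without replicate 1 of 0 h (-0.19, edgeR adjusted p = 0.0587) and under total counts (0.02).

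At BCL3 2 of 7 H3K27ac regions were called at 6 against 0 h and 2 at 72 against 0 h. Total-count scaling called 5 higher and 0 lower at 6 h, and 3 higher and 1 lower at 72 h. Its H3K27ac start region (chr19:44747572-44748890) measured 11.5 and 11.7 CPM at 0 h, 14.8 and 14 at 6 h, then 13.6 and 13.3 at 72 h. Both later times lay above 0 h, but neither difference was called (0.30 and 0.21), and total-count scaling called both (0.64 and 0.44). The highest region of the span, 5.6 kb past the start (chr19:44753482-44755042), measured 25.3 and 26.2 CPM, 28.5 and 30.7, and 32.1 and 35.2, and rose by 0.39 (SE 0.11, edgeR adjusted p = 0.00222) at 72 h. At 6 h the called regions were at 1.4 kb before the start (chr19:44747105-44747489), with 1.7 and 1.9 CPM at 0 h and 4.27 and 3.94 at 6 h, and at 21.8 kb past it (chr19:44770379-44770615), with 0.511 and 0.632 and then 1.75 and 1.28 CPM, both picked after their values were seen. They rose by 1.18 (edgeR adjusted p = 0.00107) and 1.38 (edgeR adjusted p = 0.024), and the second lost its call with DESeq2 (adjusted p = 0.11) and without replicate 1 or 2 of 0 h or replicate 1 of 6 h (edgeR adjusted p of 0.097, 0.0539 and 0.113). The BCL3 window (50 and 50.9, 62.3 and 57.8, 56.5 and 58.7 CPM) was called higher at 6 h (0.25; DESeq2 adjusted p = 0.102) and at 72 h (0.19, edgeR adjusted p = 0.0205). The 72 h call was lost without replicate 1 of 0 h (0.18, edgeR adjusted p = 0.0973), replicate 2 of 0 h (0.20, edgeR adjusted p = 0.063) or replicate 2 of 72 h (0.16, edgeR adjusted p = 0.108).

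Of 16 Jun regions tested at BCL3, 2 were called higher and 1 lower at 6 h, and 3 higher and 2 lower at 72 h, both against 0 h. Jun 1.1 kb before the start (chr19:44747229-44747908) measured 5.37 and 7.99 CPM at 0 h, 16.7 and 12.9 at 6 h, then 9.28 and 7.57 at 72 h, and rose by 1.14 (SE 0.27, edgeR adjusted p = 0.0031) at 6 h. Without replicate 1 of 0 h the rise was 0.88 with an edgeR adjusted p of 0.0553. Jun 25.7 kb past the start (chr19:44774090-44774650) measured 2.32 and 1.71 CPM, 9.72 and 12.2, and 5.30 and 6.47 (log2 fold change 2.44, SE 0.33, edgeR adjusted p = 1.67e-05) at 6 h and 1.54 (SE 0.32, edgeR adjusted p = 0.000381) at 72 h. Both sites were highest in both 6 h libraries. The largest called Jun fall, 13.6 kb before the start (chr19:44734890-44735355), went from 7.99 and 7.28 CPM to 1.81 and 1.82 and to 2.04 and 2.37.

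A site 41.4 kb past the BCL3 start, over CBLC (chr19:44789933-44790311), had the same bounds in the CTCF and Rad21 tables. CTCF measured 1.77 and 3.57 CPM at 0 h, 9.29 and 15.7 at 6 h, then 10.7 and 12.0 at 72 h. Rad21 went from 5.18 and 2.87 CPM at 0 h to 24.3 and 28.3 at 72 h (log2 fold change 2.66, SE 0.30, edgeR adjusted p = 4.58e-06). The CTCF rise was 4.79-fold (edgeR adjusted p = 0.00808) at 6 h and 2.14 on the log2 scale (SE 0.44, edgeR adjusted p = 0.014) at 72 h. The 6 h call was lost without replicate 1 of 0 h (1.78, edgeR adjusted p = 0.212), and the 72 h call without any 1 of the 0 and 72 h libraries, with adjusted p between 0.0634 and 0.125. This was the only member region of the 10 genes that was called for CTCF at 6 h.

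TNFAIP3 encodes A20, a ubiquitin-editing enzyme that shuts off signalling to IKK, and its window had the most H3K27ac regions of the 10 genes, 23 (summed level 744 and 766 CPM at 0 h, 463 and 508 at 6 h, 305 and 318 at 72 h). The 3 times did not overlap, and the window fell by 0.64 at 6 h and by 1.28 (SE 0.08, edgeR adjusted p = 6.41e-13) at 72 h, called under both scalings. Of the 23 regions, 3 were called higher and 19 lower at 72 h (3 and 13 under total-count scaling), with falls on both sides of the gene. The next 3 regions lie before the gene, over the noncoding gene WAKMAR2. The region 4.7 kb before the listed start (chr6:137861255-137863943) held the most reads, with 249 and 260 CPM at 0 h, 101 and 126 at 6 h, then 59.4 and 64.3 at 72 h (log2 fold change -2.04, SE 0.12, edgeR adjusted p = 2.46e-14). The region at 7.0 kb measured 87.3 and 86.4, 38.0 and 47.2, and 12.5 and 12.2 CPM. The largest called fall, at 7.7 kb (chr6:137859416-137859667), went from 21.5 and 21.0 CPM to 8.95 and 9.45 and to 1.59 and 2.91 (log2 fold change -3.23, SE 0.19, edgeR adjusted p = 4.28e-14). All 3 regions stepped down at each time in both libraries. The regions at 4.7, 7.0 and, below, 38.8 kb were picked after their values were seen.

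Of the 4 H3K27ac regions that overlapped the TNFAIP3 span, 1 was called higher and 3 lower at 72 h. The highest region overlapping the span, 6.7 kb past the start (chr6:137873194-137874782), measured 14.6 and 13.0 CPM at 0 h, 21.2 and 22.5 at 6 h, then 34.8 and 39.0 at 72 h. It rose by 0.67 (SE 0.13, edgeR adjusted p = 6.76e-05) at 6 h and by 1.42 (SE 0.12, edgeR adjusted p = 5.08e-11) at 72 h, with no overlap between times. The region at the low end of the span, 0.7 kb before the listed start (chr6:137866222-137866906), measured 25.1 and 26, 19.5 and 24.0, and 13.8 and 13.6 CPM, a fall of 0.90 (SE 0.12, edgeR adjusted p = 3.33e-07) at 72 h. The other two, 15.5 and 16.4 kb past the start, fell by 1.11 (edgeR adjusted p = 0.0275) and 0.53 (edgeR adjusted p = 0.0131), and both calls ended under total-count scaling (-0.88 and -0.30), with DESeq2 and without replicate 1 of 0 h or of 72 h. Past the gene, the region at 38.8 kb (chr6:137904679-137907383) measured 108 and 115, 85.6 and 92.6, and 34.3 and 37.1 CPM, and fell by 1.64 (SE 0.11, edgeR adjusted p = 2.72e-13), most of it after 6 h. The regions at 43.7 kb (59.1 and 57.9, 34.1 and 36.0, and 28.8 and 31.5 CPM) and at 52.4 kb (55.7 and 63.0, 27.8 and 28.4, and 30 and 35.4 CPM), also picked after their values were seen, fell by 0.96 and 0.86 at 72 h, called under both scalings.

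**Figure D5:**
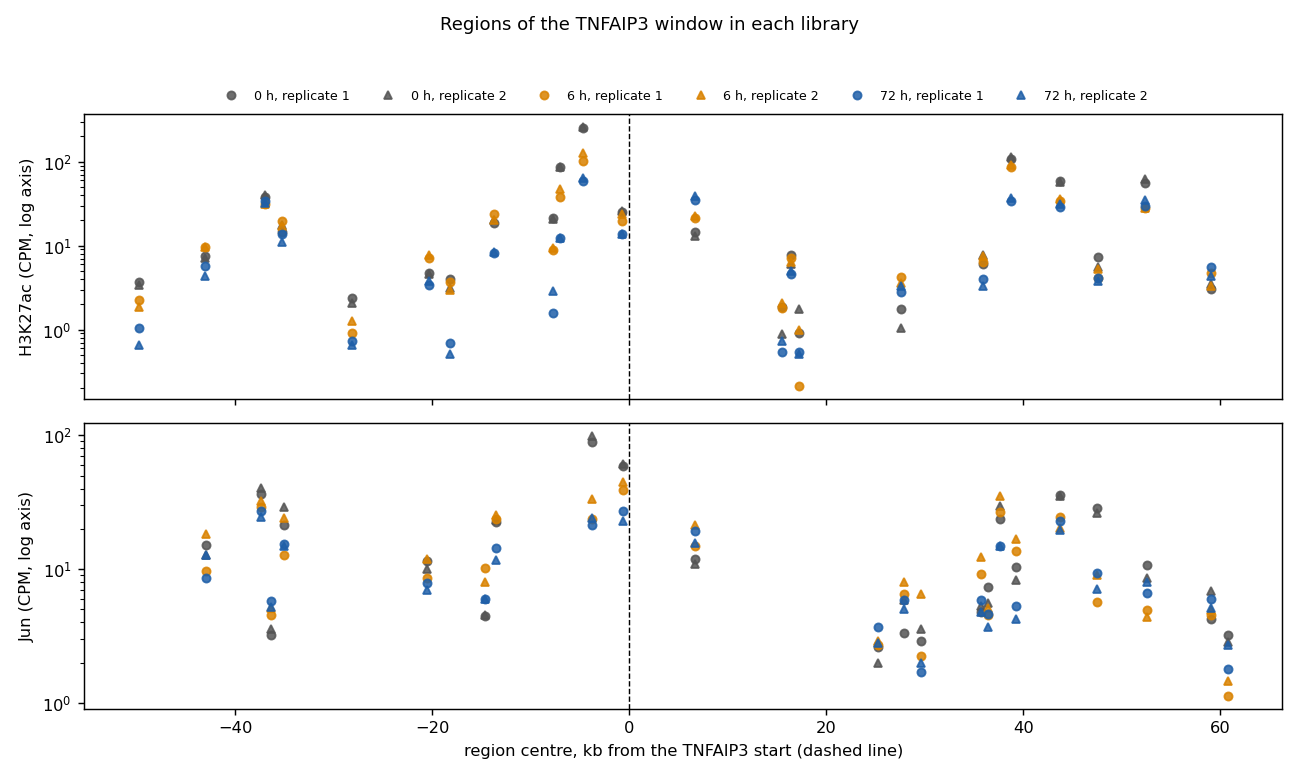
H3K27ac and Jun level (CPM, log axis) of each region in the TNFAIP3 window against its distance from the listed start (kb), for the 6 libraries of each antibody, coloured by time. The 72 h points lie below the 0 h points at 4.7 to 7.7 kb before the start and above them 6.7 kb past it.

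Of 22 Jun regions tested around TNFAIP3, 2 were called higher and 9 lower at 72 against 0 h. Total-count scaling gave 6 higher and 3 lower. The summed Jun window fell by 0.86, a call that ended under total counts (-0.30). The largest called Jun rise (from chr6:137830683) was 0.69 and lost its call in 5 leave-outs. Jun on the risen H3K27ac site (from chr6:137873219), picked after its values were seen, changed by 0.62. Jun fell before the gene. The largest called Jun fall, 3.8 kb before the start (chr6:137863096-137863797), went from 89.6 and 98.3 CPM at 0 h to 23.7 and 33.3 at 6 h, then 21.2 and 23.9 at 72 h. It fell by 1.71 (SE 0.21, edgeR adjusted p = 4.06e-06) at 6 h and by 2.06 (SE 0.20, edgeR adjusted p = 5.93e-08) at 72 h, so that most of the Jun fall was present at 6 h. The Jun region just before the listed start (chr6:137866134-137867168) ends short of the start and of the printed matches. It measured 58.5 and 61.4, 39.1 and 45.1, and 27.3 and 22.9 CPM, and fell by 1.26 (SE 0.18, edgeR adjusted p = 9.53e-06) at 72 h. The CTCF region at the start (chr6:137866960-137867377), which covers the printed TNFAIP3 matches, measured 16.7 and 13.9 CPM at 0 h, 14.1 and 9.66 at 6 h, then 15.1 and 16.7 at 72 h, and the times overlapped. Rad21 at the start (chr6:137866336-137867307) went from 16.6 and 14.1 to 28.4 and 21.8 CPM. Its rise of 0.71 (edgeR adjusted p = 0.0444) lost its call under total counts (0.54), with DESeq2 (adjusted p = 0.137), and without replicate 2 of 0 h (0.60), replicate 1 of 72 h (0.50) or replicate 2 of 72 h (0.88). The largest called Rad21 fall at or above the median level, 39.1 kb past the start (chr6:137906000-137906638), went from 32.3 and 22.5 to 11.7 and 7.13 CPM (log2 fold change -1.53, SE 0.28, edgeR adjusted p = 0.000481), and lies inside the H3K27ac region that fell at 38.8 kb.

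BIRC3 had the largest H3K27ac fall of any named member region. The site 68.7 kb past its start (chr11:102385018-102387311) measured 86.6 and 89.8 CPM at 0 h, 22.3 and 23.3 at 6 h, then 6.84 and 7.03 at 72 h. The 3 times were widely apart, and the log2 fold change was -1.95 (SE 0.11, edgeR adjusted p = 6.05e-14) at 6 h and -3.67 (SE 0.12, edgeR adjusted p = 3.11e-19) at 72 h. Jun at that site (chr11:102384956-102385394) measured 16.8 and 17.8, 4.07 and 2.54, and 1.23 and 1.14 CPM, and fell by 2.42 (SE 0.30, edgeR adjusted p = 5.54e-06) and by 3.86 (SE 0.27, edgeR adjusted p = 3.91e-09). The site lies past BIRC2, the paralogous ubiquitin ligase gene next to BIRC3, whose span holds the region with the most reads of the window (chr11:102345296-102348693), at 141 and 140, 84.8 and 93.2, and 89.0 and 101 CPM, picked after its values were seen. Reads in this window can therefore belong to either gene.

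At its own start BIRC3 was near the floor of the data. The nearest H3K27ac region (chr11:102316977-102317337) covered part of the printed promoter with only the first of its 2 matches, and ended before the start. It measured 0.966 and 1.26 CPM at 0 h, 2.03 and 1.28 at 6 h, then 0.977 and 0.728 at 72 h, and was not called at either time. Jun there (chr11:102317052-102317568) measured 4.65 and 4.57, 6.10 and 6.18, and 4.83 and 4.14 CPM, also without a call. The H3K27ac window fell nonetheless, from 264 and 261 CPM to 121 and 129 and to 103 and 116, by 1.07 (SE 0.07, edgeR adjusted p = 1.21e-12) at 6 h and 1.26 (SE 0.06, edgeR adjusted p = 1.15e-14) at 72 h. The Rad21 window of BIRC3 fell as well, from 54.0 and 48.1 to 34.6 and 32.9 CPM, with a log2 fold change of -0.60 (SE 0.15, edgeR adjusted p = 0.00137) that was called in every alternative run.

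Among Rad21 windows, 4 were called at 72 against 0 h, 1 higher and 3 lower, where 30.4% of all gene windows were called, 15.3% higher and 15.2% lower. Besides BIRC3 these were REL (-0.88; -0.77 with an edgeR adjusted p of 0.106 without replicate 1 of 72 h), TNFAIP3 (-0.43; without replicate 1 of 0 h -0.26 with an edgeR adjusted p of 0.202, and without replicate 1 or 2 of 72 h 0.107 or 0.106) and NFKBIE (0.36, which total counts, DESeq2 and 3 of the 4 leave-outs ended: replicate 1 of 0 h, 0.0775, replicate 1 of 72 h, 0.23, and replicate 2 of 72 h, 0.0809). RELA, which had no call over its window, held the region with the largest called rise 36.2 kb before its start (chr11:65699819-65700199), from 3.66 and 3.07 to 10.5 and 12.4 CPM. Among the 9 CTCF windows, 4 were called at 72 against 0 h, 1 higher (NFKB1, 0.76) and 3 lower (NFKB2 and NFKBIA, both -0.62, and BIRC3, -0.43), where 23.7% of all were called, 6.81% higher and 16.8% lower. Total-count scaling ended the 3 lower calls (-0.39 for NFKB2 and NFKBIA and -0.20 for BIRC3). None of the 4 calls held through the leave-outs: the edgeR adjusted p rose to between 0.0627 and 0.323 for NFKB1 (without replicate 1 or 2 of 0 h, or 2 of 72 h), to between 0.0611 and 0.0665 for NFKB2 (without replicate 1 of 0 h, or 1 or 2 of 72 h), to between 0.0534 and 0.167 for NFKBIA (without replicate 2 of 0 h, or 1 or 2 of 72 h) and to between 0.0996 and 0.227 for BIRC3 (without any 1 of these 4 libraries). At 6 against 0 h edgeR called 0 CTCF windows, where 5.61% of all were called (3.66% higher and 1.95% lower), with 1 at an unadjusted p under 0.05 and 0 by DESeq2. At 72 against 6 h edgeR called 0, where 7.54% of all were called (1.76% higher and 5.79% lower), with 3 at an unadjusted p under 0.05 and 0 by DESeq2.

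Levels can be set between genes per covered kb of region. At 0 h the H3K27ac order was REL (51.9 CPM per kb ± 1.34, SD, n = 2), TNFAIP3 (35.1 ± 0.722), BIRC3 (30.6 ± 0.247), RELA (22.5 ± 0.324), RELB (16.9 ± 0.195), NFKB2 (16.5 ± 0.112), NFKBIA (16.3 ± 0.800), NFKBIE (12.8 ± 0.276), BCL3 (10.2 ± 0.129) and NFKB1 (5.73 ± 0.408). The NFKBIA libraries (15.8 and 16.9) overlapped those of RELB (16.8 and 17.1) and NFKB2 (16.4 and 16.6), while RELB lay above NFKB2 in both libraries by less than 1 CPM per kb, a difference that was not tested. At 72 h the range had narrowed, with REL at 34.2 ± 4.67, TNFAIP3 at 14.5, BIRC3 at 12.7, NFKB1 at 11.1 and RELB lowest at 7.78 CPM per kb. For Jun at 0 h TNFAIP3 was highest (29.9 CPM per kb) and NFKB1 held 6.35.

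Calls among the other genes of the pathway were split much as those of all gene windows. A list of 73 genes was compared by the same gene windows, and 70 were tested for H3K27ac. At 72 against 0 h 23 were called higher, 37 lower and 10 were not called, where 88.3% of all gene windows were called, 35.1% higher and 53.2% lower, with a median log2 fold change of -0.24 beside -0.30 over all gene windows and -0.50 over the 10. By role the counts higher and lower were 4 and 6 of 13 ligands and receptors, 4 and 6 of 10 adaptors, 1 and 3 of 6 genes of the route from protein kinase C to IKK, 2 and 5 of 9 kinases, 4 and 4 of 9 inhibitors and deubiquitinases, and 8 and 13 of 23 targets. The genes named here were picked after their values were seen. Among receptors, the window of TLR2, a sensor of bacterial lipoproteins, went from 0.852 and 0.79 CPM at 0 h to 5.88 and 4.03 at 6 h, then 55.3 and 67.7 at 72 h. Among deubiquitinases, that of CYLD, a negative regulator of IKK, went from 8.24 and 6.53 to 15.9 and 14.2 and to 91.6 and 92.5 CPM. Among kinases, CHUK, which encodes a catalytic IKK subunit, fell by 1.18 (SE 0.07, edgeR adjusted p = 2.04e-13), and IKBKE, an IKK-related kinase gene, rose by 0.96 (SE 0.06, edgeR adjusted p = 9e-13). Among targets, the window of VCAM1, an adhesion molecule, went from 81.0 and 75.4 CPM to 7.55 and 9.05 and to 2.53 and 2.91. The 0 and 72 h libraries of TLR2, CYLD and VCAM1 did not overlap. For Jun, 72 of the list were tested at 72 against 0 h, 20 were called higher and 38 lower, where 76.5% of all gene windows were called, 28.3% higher and 48.2% lower, with a median of -0.35 beside -0.25 over all gene windows.

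Windows whose H3K27ac ran most like that of 3 members over the 6 libraries were listed by Pearson correlation of log2 CPM among 46670 gene windows, as a description. For TNFAIP3 these were TMEM165 and POMK (both 0.9999) and GMPS (0.9998). For NFKB2 they were EEF1A1P9, CS and IL23A (each 0.9998), and for NFKBIA they were AS3MT and RPL22P17 (both 0.9957) and SPEN (0.9942). The 6 points share 3 time points, and the values describe these libraries only.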

How the data were processed

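The files hold, per region and library, the read counts the authors deposited as whole numbers, with the authors' log2 fold changes and adjusted p-values per the file headers; the latter were used only for the authors' labels. The deposited peak lists give a fold enrichment (a ratio) and −log10 p and q per peak, and served only to note which libraries had a peak. The submitters' processing notes name Trim Galore 0.4.3, BWA 0.7.17, SAMtools 1.9, deepTools 3.0.1, MACS2 and bedtools 2.26 without roles, and both hg19 and hg38. The tables were read as hg38 (GRCh38): 41.6% of 34935 RefSeq promoter windows of GRCh38.p14 overlapped an H3K27ac region, and 5.86% did after a shift of 200 kb. Columns of other samples numbered 0.

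Groups came from the sample titles. Counts were tested with edgeR 4.0.16 (R 4.3.3; filterByExpr, TMM, quasi-likelihood test, Benjamini-Hochberg adjustment), 1 fit per antibody over all regions and times, and likewise for counts summed over every RefSeq gene span with 50 kb flanks. Alternatives were scaling to total counts, DESeq2 1.42.0, no filter on low counts, a mean count of at least 50, a fit of only 2 times, a replicate block, and leaving out each library. Regions named by rule are, per gene and antibody, that over the start, the highest overlapping the span, and the called regions with the largest rise and fall at 72 against 0 h whose mean CPM reached the antibody's median and whose libraries did not overlap. Members and lists were chosen with earlier results of these data known. Of 200 simulated regions changed 4-fold at 72 against 0 h, 199 were recovered for H3K27ac (7.442% of calls false, 94865 regions), 186 for Jun (3.125%, 132947 regions), 174 for CTCF (3.333%, 58156 regions) and 166 for Rad21 (4.046%, 83750 regions). The changed regions were drawn only from those above a set expected count, with a common spread for all regions and no other change. These rates therefore do not describe dim regions, or tables in which most regions were called. The main fits assumed no pairing by replicate number. Correlations of same-numbered deviations ranged from -0.022 to 0.124, and with 2 libraries per time they cannot show whether libraries were paired. Figures used matplotlib 3.10.9 with pandas 2.3.3, under Python 3.11.15.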

Additional observations from a re-analysis of the deposited data

How the results depend on the processing

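Counts of called members that moved by over 1.5 times are given with the main count in parentheses. Under total-count scaling they were 8 H3K27ac windows at 72 against 6 h (5), 17 Jun regions at 72 against 6 h (35), 5 Jun windows at 72 against 0 h (9), 1 Jun window at 72 against 6 h (10), 8 CTCF regions at 72 against 0 h (5) and 4 at 72 against 6 h (0), and 1 CTCF window at 72 against 0 h (4). With DESeq2 they were 20 Jun regions at 72 against 6 h, 3 CTCF regions and 1 CTCF window at 72 against 0 h, and 6 Rad21 regions (24). With a mean count of at least 50, which leaves fewer regions, they were 38 Jun regions at 72 against 0 h (66), 0 and 1 CTCF regions at 6 and 72 against 0 h, and 12 Rad21 regions. Without a filter 1 CTCF region was called at 72 against 6 h, and with only 2 times fitted 12 at 72 against 0 h. With the replicate block, which assumes a pairing the labels do not state, 9 CTCF regions at 72 against 0 h, 3 CTCF regions and 1 CTCF window at 72 against 6 h were called. Leaving out 1 library gave, for 6 against 0 h, 72 against 0 h and 72 against 6 h in turn, 48 to 57, 75 to 87 and 46 to 58 H3K27ac regions and 8 to 9, 8 to 10 and 4 to 7 windows; 19 to 36, 40 to 77 and 4 to 35 Jun regions (4 and 40 without replicate 2 of 72 h, 19 without replicate 1 of 0 h) and 3 to 6, 8 to 10 and 6 to 10 windows; 0 to 1, 0 to 11 and 0 to 4 CTCF regions and 0, 0 to 6 and 0 to 3 windows. For Rad21 it gave 14 to 25 regions and 1 to 4 windows. The cause was not tested, other than the smaller number of regions or libraries. For the regions named by rule, 1095 of 1204 values with 1 library left out and 1088 of 1173 under other settings kept their direction and side of the threshold, and 0 reversed. CTCF libraries held from 2553677 and Rad21 from 4398797 counts, against at least 12634261 for H3K27ac, and the effect of depth was not tested.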

Other observations

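The authors' deposited table labels each region by a class of change. Of the 14 H3K27ac members of the class upLate, 5 had a positive and 9 a negative log2 fold change at 72 h in the authors' deposited table, and over all H3K27ac regions 16072 of 22063 regions of that class were positive. Of the 7711 regions of the class downEarly in the authors' deposited table, 5503 had a positive value at 72 h. For Rad21 the classes and signs matched, with all 1898 regions of the class up positive and all 87 of the class down negative, and the only member of the class up in the authors' deposited table was the site over CBLC past BCL3. All 69 CTCF members were of the class static there.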
